A study of Mus musculus with 16 samples.

Results

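Cholesterol and fatty acid synthesis in liver cells was followed through 32 genes taken by symbol, all of which were found among the 47729 genes counted in each library. 8 of them act in the mevalonate and squalene steps (Hmgcs1, Mvk, Pmvk, Mvd, Idi1, Fdps, Fdft1, Sqle) and 8 in the sterol steps (Lss, Tm7sf2, Msmo1, Nsdhl, Hsd17b7, Ebp, Sc5d, Dhcr7). 6 are regulators or carry cholesterol (Srebf1, Srebf2, Insig1, Stard4, Thrsp, Mlxipl), 5 serve fatty acid synthesis (Fasn, Acaca, Acacb, Acly, Me1) and 5 desaturate or elongate fatty acids (Scd1, Elovl5, Elovl6, Fads1, Fads2). RNA was sequenced from endothelial cells (ECs), hepatic stellate cells (HSCs), Kupffer cells and hepatocytes of unchallenged livers, giving 16 libraries (n = 2 for each cell type and label). Livers labelled KO came from mice with tamoxifen-inducible Cre under the endothelial Cdh5 promoter (Cdh5-CreERT2), a floxed exon 7 of Zeb2 and an eGFP reporter, so that the deletion was aimed at ECs and the other 3 cell types were neighbours of the targeted cells. Wild-type (WT) livers came from littermates without Cre, and mice of both genotypes received tamoxifen at 2 mg per day on 5 consecutive days. By the general methods of the study, the mice were 8-week-old males and RNA was taken 2 weeks after tamoxifen. HSCs, Kupffer cells and ECs were obtained by cell sorting and hepatocytes by centrifugation, and the mouse behind each library is not given in the sources used here.

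Cells build cholesterol from acetyl-CoA through mevalonate, squalene and lanosterol, and they build fatty acids from the same precursor through malonyl-CoA. The transcription factors encoded by Srebf2 and Srebf1 (SREBPs) are held in the endoplasmic reticulum when sterols are plentiful, in part by the Insig proteins, and activate the genes of both routes when they are released. The liver is a major site of both routes, and in hepatocytes the glucose-responsive factor encoded by Mlxipl (ChREBP) also drives lipogenic genes.

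Libraries held between 12872706 and 15690506 counts on genes, and 3 counts corresponded to 0.191 to 0.233 CPM (counts scaled to the library's total on genes), which was taken as the smallest level this depth can show. Markers of each labelled cell type were highest in its own libraries, but RNA of hepatocyte markers was also counted in the sorted cells. In ECs and HSCs the level of 12 hepatocyte markers differed with the genotype label. Their median, as a share of the WT hepatocyte mean, was 10.6% and 24.3% in WT ECs against 2.38% and 1.95% in KO-labelled ECs, and 3.05% and 7.17% in WT HSCs against 0.509% and 1.18% in KO-labelled HSCs. Kupffer cells went the other way, from 5.17% and 8.01% (WT) to 8.79% and 11.3% (KO label). Zeb2, the targeted gene, had 106.5 and 105.7 CPM in WT ECs and 198.9 and 130.1 CPM in KO-labelled ECs, so that the count, taken over the whole gene, was not reduced in the libraries labelled KO. Groups are therefore called by their labels. Which libraries share a liver is not known, so p-values measure only the spread between these libraries.

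Promoters were searched for motifs in the 250 bases before the RefSeq start sites (GRCm38.p6), which were given for 26 of the 32 genes, in 33 promoters. 4 windows are printed because they show the motifs in genes on which the comparisons turn, with each 5′ to 3′ along its gene. Capitals mark 3 motifs on either strand, namely the sterol regulatory element TCACNCCAC (reverse GTGGNGTGA), the E-box CACGTG that also occurs in carbohydrate response elements, and CCAAT (reverse ATTGG), the letters bound by NF-Y. The windows are Hmgcs1 at chr13:119690101-119690350 (plus strand), Mlxipl at chr5:135106641-135106890 and, for another start site, at chr5:135089640-135089889 (both plus strand), and Fasn at chr11:120824548-120824797 (minus strand).
Hmgcs1: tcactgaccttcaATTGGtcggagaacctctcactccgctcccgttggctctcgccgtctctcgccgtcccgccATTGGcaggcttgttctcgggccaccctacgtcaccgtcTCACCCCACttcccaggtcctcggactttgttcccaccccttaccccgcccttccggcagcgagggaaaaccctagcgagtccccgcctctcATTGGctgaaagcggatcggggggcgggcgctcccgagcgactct
Mlxipl, downstream start site: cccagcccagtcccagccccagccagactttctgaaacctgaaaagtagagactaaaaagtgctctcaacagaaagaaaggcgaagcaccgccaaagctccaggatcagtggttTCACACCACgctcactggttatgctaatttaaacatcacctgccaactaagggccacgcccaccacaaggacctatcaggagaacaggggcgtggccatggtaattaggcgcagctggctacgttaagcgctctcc
Mlxipl, upstream start site: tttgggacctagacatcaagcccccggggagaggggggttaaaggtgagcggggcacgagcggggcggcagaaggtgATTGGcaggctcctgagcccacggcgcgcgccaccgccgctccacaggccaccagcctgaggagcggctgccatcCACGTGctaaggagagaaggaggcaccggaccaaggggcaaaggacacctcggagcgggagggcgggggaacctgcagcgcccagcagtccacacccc
Fasn: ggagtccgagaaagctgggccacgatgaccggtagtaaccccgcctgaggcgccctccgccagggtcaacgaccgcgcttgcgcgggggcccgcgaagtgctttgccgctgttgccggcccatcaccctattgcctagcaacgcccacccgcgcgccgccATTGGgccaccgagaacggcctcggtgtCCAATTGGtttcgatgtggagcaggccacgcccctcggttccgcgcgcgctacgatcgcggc
The sterol regulatory element letters stood in 2 of the 33 promoters (6.06%), those of Hmgcs1 and of the downstream start site of Mlxipl, against 1.05% of 32851 promoters of the same length. CACGTG stood in 6 (18.2%) against 6.02%, the upstream Mlxipl window among them, and CCAAT in 23 (69.7%) against 33.8%. The Fasn window held 3 matches to CCAAT, of which 2 overlap, and neither of the other motifs. These are counts of letters and not of bound sites.

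Hepatocytes had the highest level of most of these genes. On the CPM scale hepatocytes ranked highest of the 4 cell types for 28 of the 32 genes, and for 23 of them all 4 hepatocyte libraries lay above all 12 other libraries. In edgeR's fit over the 16 libraries, with both labels averaged, 32 of 32 genes were higher in hepatocytes than in ECs, while 25.5% of the 17214 genes tested were. Against HSCs 30 were higher (24.4% of all genes) and against Kupffer cells 29 (26.3% of all genes), and in none of these comparisons was a member called lower. The median log2 difference of the members was 3.82, 3.81 and 3.39, beside -0.54, -0.60 and -0.24 over all genes tested. TMM (edgeR's scaling between libraries) gave hepatocyte libraries low factors, and scaling to library totals moved those medians over all genes to -1.85, -1.67 and -1.24. On library totals the members called higher were 27, 27 and 28 and those called lower 0, 1 and 1. The share of all genes called with this scaling is not set beside these counts. Srebf2 and Stard4 (against ECs), Srebf2 and Acaca (against HSCs) and Srebf2, Acaca and Acly (against Kupffer cells) changed direction.

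**Figure D1:**
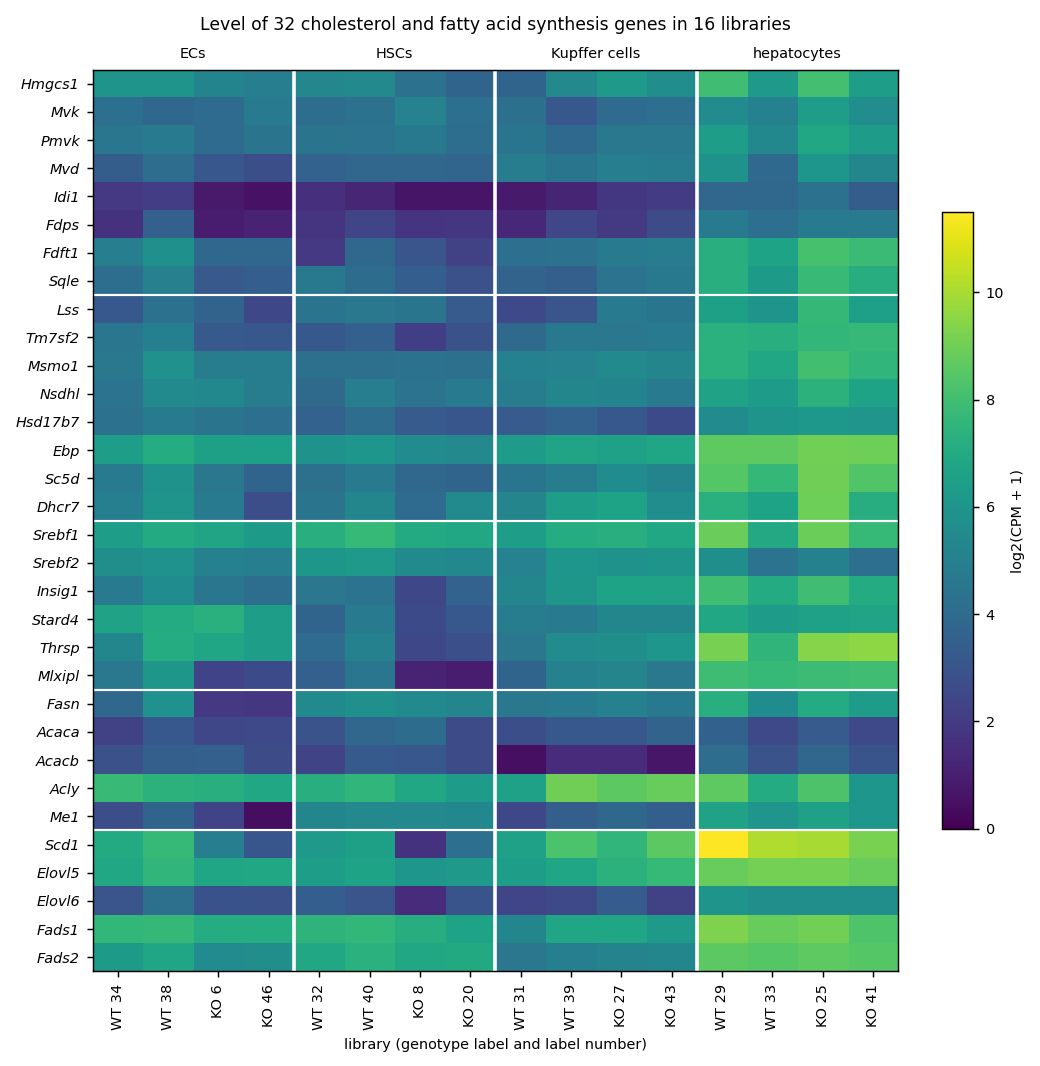
Level of each of the 32 genes (rows, ordered by role with white lines between roles) in each of the 16 libraries (columns, by cell type, genotype label and label number), as log2(CPM + 1) from dark (low) to yellow (high). The hepatocyte columns are brightest for most genes, whereas Srebf2, Acaca and Acly do not stand out there.

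All 16 enzymes of cholesterol synthesis were called higher in hepatocytes against each of the other cell types. Sc5d, a sterol desaturase, had 350, 197, 504 and 327 CPM in the hepatocyte libraries (WT 29, WT 33, KO 25 and KO 41) and between 12.0 and 58.1 CPM in the 12 others. No library of another cell type reached the lowest hepatocyte library. Its log2 difference was 5.02 (SE 0.33) against ECs, 5.44 (SE 0.34) against HSCs and 4.45 (SE 0.33) against Kupffer cells, with edgeR adjusted p of 1.69e-07, 9.94e-08 and 4.22e-07. Ebp, a sterol isomerase, was the cholesterol enzyme with the highest level per length in every cell type. It had 43.5 ± 10.5 RPKM (CPM per kilobase of exon, SD over 4 libraries) in ECs and 22.5 ± 4.66 in HSCs. In Kupffer cells it had 42.4 ± 5.69 and in hepatocytes 195.8 ± 30.0 RPKM. Idi1, isopentenyl diphosphate isomerase, was among the lowest everywhere, at 3.98 ± 1.17 RPKM in hepatocytes and 0.316 ± 0.198 in HSCs. Hmgcs1, which makes HMG-CoA, had 60.2 and 60.5 CPM in WT ECs, 38.7 and 42.0 in WT HSCs, 12.1 and 42.0 in WT Kupffer cells and 252 and 73.0 in WT hepatocytes. Even the lower WT hepatocyte library was above the 6 other WT libraries, and hepatocytes also had the widest gap between the libraries of 1 group. Mvk and Mvd, kinase and decarboxylase of the mevalonate steps, were the cholesterol enzymes whose hepatocyte libraries overlapped those of the next cell type. Mvd had 59.6, 14.4, 65.2 and 37.4 CPM in hepatocytes and 21.1 to 28.9 CPM in Kupffer cells. Fdps and Tm7sf2 overlap a protein-coding gene on the same strand, and Mvd, Fdft1, Srebf1 and Acaca overlap one on the other strand. Hmgcs1, Idi1, Lss, Acacb, Elovl6, Me1 and Mlxipl overlap some other annotated gene there. The strand setting of the counting is not given in the sources used here, so the counts of all these genes are less certain.

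The regulators followed no common order. In CPM, Srebf2 was highest in HSCs (67.7 and 71.5 CPM in WT, 43.6 and 40.1 with the KO label) and lowest in hepatocytes (52.5 and 19.8 in WT, 32.2 and 17.6 with the KO label), though neighbouring cell types overlapped throughout this order. It was the member with the smallest log2 difference between hepatocytes and HSCs, 0.25 (SE 0.26, edgeR adjusted p = 0.428), and on library totals it was called lower in hepatocytes (log2 difference -0.85, edgeR adjusted p = 0.0273). Srebf1 had 465 and 122 CPM in WT hepatocytes and 484 and 204 with the KO label, against 76.7 to 204 CPM in the other cell types. Mlxipl had 244, 206, 231 and 253 CPM in hepatocytes, a range that held far less spread than that of Srebf1. Its log2 difference was 5.40 (SE 0.42) against ECs and 6.98 (SE 0.46) against HSCs, among the 3 largest of the members in both. Thrsp, a lipogenic protein of thyroid hormone response, ranked just below the highest member per length in hepatocytes (246 ± 113 RPKM) and also in ECs (41.9 ± 19.5 RPKM). Stard4, a soluble cholesterol carrier, had 97.8 and 132 CPM in WT ECs and 155 and 86.8 with the KO label, against 119, 77.5, 94.0 and 105 in hepatocytes, and the libraries of these cell types overlapped. The edgeR fit put it higher in hepatocytes with TMM (log2 difference 1.13, SE 0.27, adjusted p = 0.00355), while the estimate on library totals was -0.25.

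Among the fatty acid genes the spread over cell types was widest for Scd1. Scd1, the stearoyl-CoA desaturase, had 2881 and 1108 CPM in WT hepatocytes and 1026 and 572 with the KO label. The other libraries held between 2.21 CPM (KO-labelled HSCs 8) and 389 CPM (KO-labelled Kupffer cells 43), so hepatocytes did not overlap them. Its log2 difference was 5.87 (SE 0.73) against ECs and 6.57 (SE 0.76) against HSCs, with edgeR adjusted p of 2.44e-05 and 1.34e-05. Per length it was the highest member in hepatocytes (286 ± 208 RPKM). Fads2, a polyunsaturated fatty acid desaturase, had 380, 351, 400 and 355 CPM in hepatocytes, 118 to 161 in HSCs, 45.1 to 106 in ECs and 22.4 to 37.4 in Kupffer cells. It was the only member for which all neighbours in the order of cell types lay apart. In HSCs Fads2 and Fads1 were the highest members per length (39.8 ± 6.14 and 32.2 ± 8.65 RPKM), followed by Srebf1, Acly and Elovl5. Acly, which makes cytosolic acetyl-CoA from citrate, was the highest member in Kupffer cells (68.2 ± 34.9 RPKM). It had 507, 384 and 453 CPM in 3 Kupffer cell libraries and 94.2 CPM in the library WT 31, and 397, 135, 313 and 65.7 CPM in hepatocytes. The 2 cell types overlapped, and their log2 difference was 0.40 (SE 0.50, edgeR adjusted p = 0.536). Acaca, the cytosolic acetyl-CoA carboxylase, ranged from 3.77 to 15.8 CPM over all 16 libraries, and neighbours in the order of cell types overlapped.

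**Figure D2:**
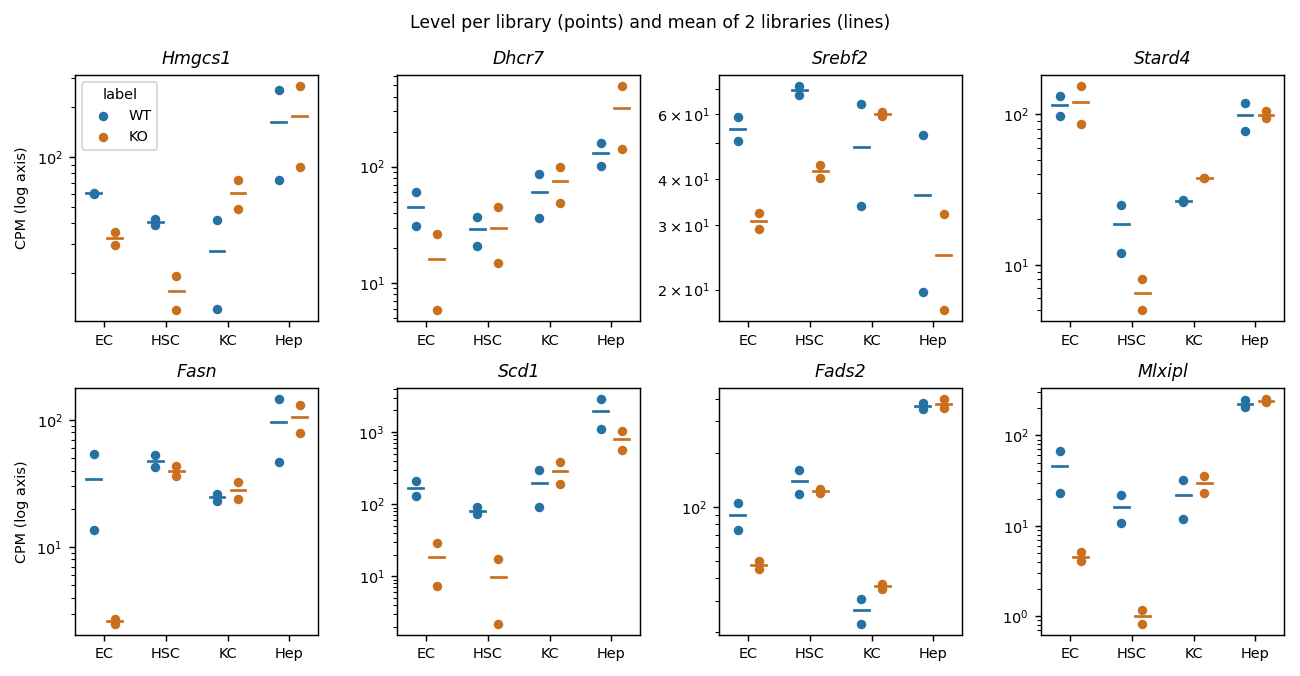
CPM on a log axis for 8 genes in ECs, HSCs, Kupffer cells (KC) and hepatocytes (Hep), where each point is a library, blue for WT and orange for the KO label, and lines are means of 2 libraries. Hepatocytes lie above the rest for Hmgcs1, Dhcr7, Scd1, Fads2 and Mlxipl but not for Srebf2 and Stard4, and Mlxipl, Fasn and Scd1 lie lower with the KO label in ECs.

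Because hepatocyte markers were counted in the sorted cells, each member was set beside them as a share of its own WT hepatocyte mean. In all 4 libraries, the share was above the median share of the 12 markers for 23 of 32 members in ECs, 28 in HSCs and 26 in Kupffer cells. The markers are genes chosen for hepatocytes, and no such count was made over all genes, so these counts have no background to be judged by. Stard4 reached 88.1% to 158% of its hepatocyte level in ECs, where the marker median was at most 24.3%. Srebf2 reached 80.8% to 162% in ECs, 111% to 198% in HSCs and 93.2% to 177% in Kupffer cells. Acaca (66.2% to 202%), Me1, the malic enzyme that makes NADPH (46.2% to 51.9%), and Fads2 (32.4% to 44.0%) were far above the marker median in HSCs, and Mvd (56.9% to 78.0%), Acly (35.4% to 190%) and Acaca (73.6% to 146%) were in Kupffer cells. At the other end, Scd1 lay below the marker median in 4 of 4 EC libraries (0.369% to 10.5%) and in 3 of 4 HSC libraries (0.111% to 4.55%). Me1 was above it in 1 of 4 EC libraries and Mlxipl in 2. After the marker median times the hepatocyte level was subtracted, Mlxipl kept -0.49 (WT 34) and 13.1 CPM (WT 38) in WT ECs and -1.32 (KO 6) and 0.68 CPM (KO 46) in KO-labelled ECs. Without WT 38 the remainders of both labels lay around 0. Stard4 kept 87.3 and 107.9 CPM in WT ECs and 152.8 and 84.8 CPM with the KO label. As means per label, more members kept a higher remainder with the KO label in ECs than a lower one. Ebp went from 41.9 CPM in WT to 81.8 with the KO label, and Elovl5 from 65.7 to 100.8. Fasn went from 17.3 to 0.52 and Srebf2 from 48.4 to 30.0. Scd1 kept -177 CPM in WT and -24.9 with the KO label, so more was subtracted than had been counted. This subtraction is a description, since the share of hepatocyte RNA for each gene was not measured.

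**Figure D3:**
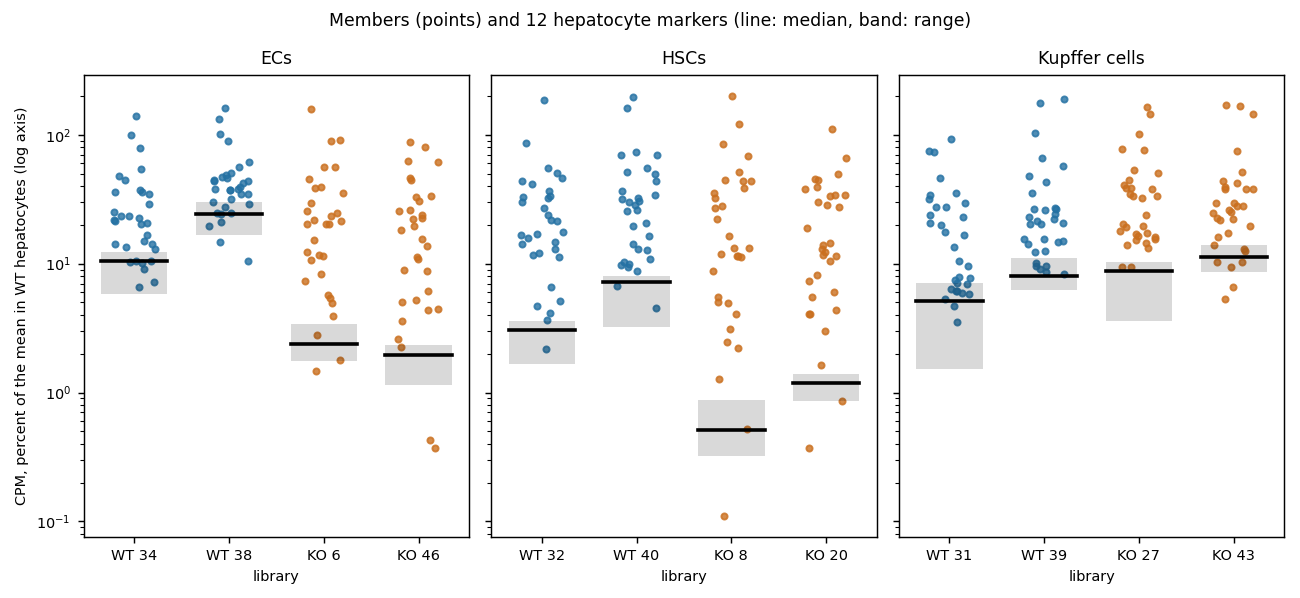
CPM of the 32 genes (points, blue for WT and orange for the KO label) in each EC, HSC and Kupffer cell library as a percentage of the mean in WT hepatocytes, on a log axis, with the median (line) and range (band) of 12 hepatocyte markers in the same library. The marker line falls from 24.3% in EC WT 38 to 1.95% in EC KO 46, and most points lie above the line in each library.

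Between the sorted cell types the differences were smaller and ran both ways. Against HSCs, 7 members were higher in ECs (13.3% of all genes) and 3 lower (12.8%). Stard4 had 12.0 and 25.1 CPM in WT HSCs and 4.98 and 8.02 with the KO label, all below the lowest EC library, a log2 difference of 3.16 (SE 0.29, edgeR adjusted p = 9.49e-06). Thrsp (2.75, SE 0.44) and Fdft1, squalene synthase (1.58, SE 0.39), followed. Me1 (-3.47, SE 0.48), Fasn (-2.46, SE 0.41) and Fads2 (-1.25, SE 0.17) were lower in ECs, and of these Me1 had 37.3 to 41.9 CPM in HSCs against 0.348 to 11.9 CPM in ECs. Against Kupffer cells, 4 members were higher in ECs (17.5% of all genes) and 9 lower (14.5%). Acacb, the mitochondrial acetyl-CoA carboxylase (2.51, SE 0.53, with as little as 0.402 CPM in the Kupffer cell library WT 31), Stard4 (1.56, SE 0.27) and Hsd17b7, a ketosteroid reductase (1.01, SE 0.21), were highest above Kupffer cells, and Scd1 (-2.40, SE 0.63), Mvd (-1.85, SE 0.36) and Fasn (-1.80, SE 0.40) farthest below. Without the EC library WT 34 or KO 46, Scd1 was no longer called (edgeR adjusted p = 0.0517 and 0.0501). HSCs had 4 members higher than Kupffer cells (22.3% of all genes) and 14 lower (20.6%), led by Acacb (2.43, SE 0.53), Me1 (2.04, SE 0.45) and Fads2 (2.02, SE 0.18) on the higher side and by Scd1 (-3.10, SE 0.65), Mlxipl (-2.71, SE 0.39) and Insig1 (-2.52, SE 0.34) on the lower. The hepatocyte markers moved with these counts. 10 of 12 were called higher in ECs than in HSCs (median log2 difference 1.37), 12 of 12 lower in HSCs than in Kupffer cells (median -2.04), and between ECs and Kupffer cells none was called while all 12 estimates were negative (median -0.69). Their part in the values of the lipid genes was not tested.

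Most of these calls were not made among WT libraries alone. Between ECs and HSCs 2 members were then called higher (4.88% of all genes) and 1 lower (5.33%). Between ECs and Kupffer cells 2 were called higher (9.23%) and none lower (8.05%), and the median of the members moved from -0.50 to 0.16. Between HSCs and Kupffer cells 3 were called higher (11.7%) and 2 lower (9.47%), and the median moved from -0.67 to 0.10. Fasn turned from lower to even between ECs and Kupffer cells (0.08, edgeR adjusted p = 0.958). On library totals, 3 members changed direction between ECs and HSCs and 6 between ECs and Kupffer cells, all of them uncalled.

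In ECs, the cells aimed at by the deletion, 1 of 32 members was called lower with the KO label and none higher, beside 1.97% and 0.116% of the 14631 genes tested. This member was Mlxipl (ENSMUSG00000005373, chr5:135089890-135138382 of GRCm38, plus strand). It had 23.3 and 67.7 CPM in WT and 4.04 (KO 6) and 5.08 (KO 46) with the KO label. Both KO-labelled libraries were far below both WT libraries, and the log2 fold change was -3.30 (SE 0.55, edgeR adjusted p = 0.0432). Without the library KO 6 or KO 46 the adjusted p was 0.094 and 0.0853, and on library totals 0.0554. Fasn, fatty acid synthase, had 13.8 and 54.5 CPM in WT against 2.72 and 2.50, a log2 fold change of -3.69 (SE 0.68, edgeR adjusted p = 0.0554). Scd1 had 131 and 210 CPM in WT against 29.2 and 7.37, a log2 fold change of -3.25 (SE 0.61, edgeR adjusted p = 0.0561). Without WT 38 the log2 fold change of Fasn was -2.42. In these 3 genes the groups did not overlap, and in each the library WT 38 was the highest. All 12 hepatocyte markers were also called lower in these libraries, with a median log2 fold change of -2.91. Of the other marker lists, all members were negative for 8 stellate cell markers (median -1.50), 5 lymphocyte markers (median -1.32) and 4 neutrophil markers (median -1.95), and all 8 Kupffer cell markers were positive (median 0.86). The median was 0.01 for 8 endothelial markers and -0.03 for 4 biliary markers. The part of these other cells in the values of the lipid genes was not tested, and in such pools of cells fewer cells of a type and less RNA per cell cannot be told apart.

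Across the members the EC estimates leaned downwards. 28 of 32 were negative, with a median log2 fold change of -0.87 beside -0.01 over all genes, and 14 were lower at an unadjusted p under 0.05, while 10.1% of all genes were. Both KO-labelled libraries lay below both WT libraries for 20 members, while 24.1% of all genes did, and above them for none, while 24.2% of all genes did. Of the 16 cholesterol enzymes 14 had a negative estimate. Fdps, farnesyl diphosphate synthase, was the lowest of these at -2.67 (SE 0.91, edgeR adjusted p = 0.254), from 2.23 and 10.4 CPM to 0.836 and 1.11. Tm7sf2, a sterol reductase, came nearest to the threshold at -1.69 (SE 0.32, edgeR adjusted p = 0.06), from 21.98 and 30.1 CPM to 8.36 and 7.79. Hmgcs1 went from 60.2 and 60.5 CPM to 35.2 and 29.5 (log2 fold change -0.90, SE 0.22, edgeR adjusted p = 0.124), with hardly any spread within WT. The highest estimates were those of Mvk (0.36, SE 0.38), Thrsp (0.13, SE 0.54) and Nsdhl, an enzyme of sterol demethylation (0.07, SE 0.42), and each of them turned negative when some library was left out. Srebf1, at 85.1 and 130 CPM in WT against 104 and 76.7, overlapped between labels. DESeq2 called 7 members lower (Mlxipl, Fdft1, Fads2, Tm7sf2, Fasn, Scd1 and Hmgcs1) and 5.74% of all genes. EdgeR called 5 members lower without WT 34 (3.84% of all genes), Scd1 in place of Mlxipl without KO 6 (0.33%), and none without KO 46 (0.0126%).

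**Figure D4:**
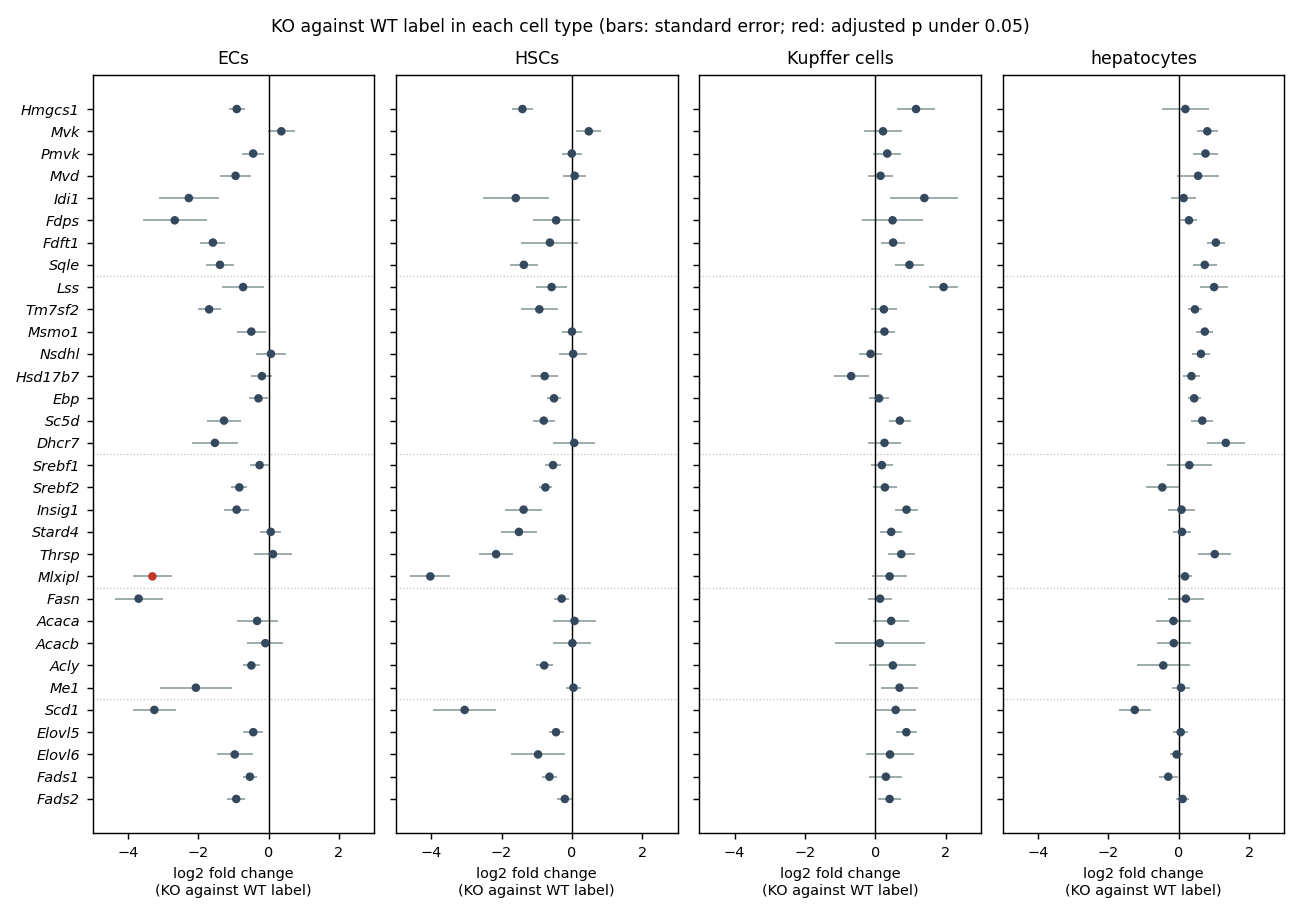
Log2 fold change of each of the 32 genes between the KO and WT labels (horizontal axis, bars are standard errors) in ECs, HSCs, Kupffer cells and hepatocytes, with red for an edgeR adjusted p under 0.05. Only Mlxipl in ECs is red, and points lie mostly left of 0 in ECs (28 of 32) and HSCs (24 of 32) and mostly right of 0 in Kupffer cells (30 of 32) and hepatocytes (25 of 32).

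In HSCs no member was called by edgeR, as was no gene of the 14390 tested (0%), and 12 members were lower at an unadjusted p under 0.05, as were 7% of all genes. DESeq2 called 4 members lower, Mlxipl, Thrsp, Scd1 and Hmgcs1, and 2.71% of all genes. Mlxipl had 10.6 and 21.8 CPM in WT and 1.18 (KO 8) and 0.83 (KO 20) with the KO label. The log2 fold change was -4.03 (SE 0.57, edgeR adjusted p = 0.297). Scd1 had 72.7 and 90.8 CPM in WT against 2.21 and 17.1 (log2 fold change -3.05, or -5.29 without KO 20, SE 0.90, edgeR adjusted p = 0.436), and Thrsp 15.4 and 32.2 against 4.70 and 6.02 (-2.16, SE 0.47, edgeR adjusted p = 0.343). In each of these genes both KO-labelled libraries lay below both WT libraries, which held for 18 members and for 19.3% of all genes. Srebf2 was among them at 67.7 and 71.5 CPM against 43.6 and 40.1 (log2 fold change -0.75, SE 0.19, edgeR adjusted p = 0.39). All 6 regulators and transport genes had negative estimates, with a median of -1.44. The fatty acid synthesis enzymes differed less, with a median of 0.01. Fasn had 42.6 and 53.4 CPM in WT and 43.1 and 36.4 with the KO label and overlapped between labels. The highest estimates were those of Mvk (0.48, SE 0.36), Mvd (0.08, SE 0.33) and Acaca (0.07, SE 0.62). The median over members was -0.60, beside 0.02 over all genes, and that over 12 hepatocyte markers was -2.53. All 5 lymphocyte markers (median -1.61) and 7 of 8 endothelial markers (median -1.03) also had negative estimates. The part of these markers in the values of the lipid genes was not tested.

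In Kupffer cells the estimates leaned the other way, with 30 of 32 positive and a median log2 fold change of 0.41, beside -0.02 over all genes and 0.56 over the hepatocyte markers, whose part was not tested. EdgeR called no member and no gene of the 13867 tested (0%), and 3 members were higher at an unadjusted p under 0.05 (3.35% of all genes). Both KO-labelled libraries were above both WT libraries for 15 members, which 20.5% of all genes were. Lss, lanosterol synthase, had the highest estimate. It had 4.76 and 7.24 CPM in WT and 26.2 and 21.2 with the KO label, well apart, with a log2 fold change of 1.94 (SE 0.41, edgeR adjusted p = 0.933), and was the member called by DESeq2 (0.346% of all genes were called higher). Idi1 (0.805 and 1.30 CPM against 2.64 and 3.05, log2 fold change 1.39, SE 0.97) and Hmgcs1 (12.1 and 42.0 CPM against 72.9 and 48.5, log2 fold change 1.15, SE 0.55) came next. The lowest estimates were those of Ebp (0.10, SE 0.28), Nsdhl (-0.14, SE 0.33) and Hsd17b7 (-0.69, SE 0.50). The library WT 31 held the lowest total of the 32 genes, 930.5 CPM, against 1933 CPM in WT 39 and 1949 and 2098 CPM with the KO label. Without it the estimate of Hmgcs1 was 0.58, and without WT 39 it was 2.15. All 8 stellate cell markers and all 4 neutrophil markers also had positive estimates in Kupffer cells (medians 0.79 and 2.07).

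In hepatocytes no member was called by edgeR, as was no gene of the 11548 tested (0%). At an unadjusted p under 0.05, 5 members were higher (2.42% of all genes) and 1 was lower (4.69%). All 16 cholesterol enzymes had positive estimates with a median log2 fold change of 0.65, and the 10 fatty acid genes had a median of -0.10, beside -0.02 over all genes. The difference between these groups of genes was not tested. In the same libraries all 12 hepatocyte markers had positive estimates (median 0.21), all 8 Kupffer cell markers negative ones (median -1.03, 5 at an unadjusted p under 0.05), and 8 stellate cell markers a median of -0.55. The part of these markers in the values of the lipid genes was not tested. Dhcr7, the last reductase of the route, had 158 and 102 CPM in WT and 496 and 143 with the KO label (log2 fold change 1.34, SE 0.54, edgeR adjusted p = 0.7), and the labels overlapped. Without KO 25 this estimate was 0.28. Fdft1 had 153 and 102 CPM against 279 and 225, without overlap (log2 fold change 1.05, SE 0.25, edgeR adjusted p = 0.7), and was the member called by DESeq2 (0.0953% of all genes were called higher). Both KO-labelled libraries were above both WT libraries for 8 members, 7 of them cholesterol enzymes (Fdft1, Tm7sf2, Hsd17b7, Ebp, Nsdhl, Msmo1 and Mvk) and the other Thrsp, and 16.4% of all genes were. Scd1 was the lowest at -1.25 (SE 0.46, edgeR adjusted p = 0.7), from 2881 and 1108 CPM to 1026 and 572, followed by Srebf2 (-0.47, SE 0.47) and Acly (-0.44, SE 0.75). Without WT 29 the estimate of Scd1 was -0.48. The spread within labels was large for several members and crossed them. The libraries WT 29 and KO 25 had 252 and 268 CPM of Hmgcs1 and 465 and 484 CPM of Srebf1, whereas WT 33 and KO 41 had 73.0 and 86.6 CPM and 122 and 204 CPM. Fasn (146 and 132 CPM against 46.7 and 78.7), Acly (397 and 313 against 135 and 65.7) and Acacb (16.1 and 12.9 against 6.61 and 6.81) had the same order. In these 5 genes the libraries of 1 label differed by more than the labels did.

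The difference between cell types in the effect of the label was tested as an interaction over the 16 libraries. The label effect of 4 members was lower in ECs than in Kupffer cells, where 1.96% of the 17214 genes were. These were Mlxipl (-3.73, SE 0.73, edgeR adjusted p = 0.0288), Idi1 (-3.67, SE 0.68, edgeR adjusted p = 0.0243), Fasn (-3.84, SE 0.81, edgeR adjusted p = 0.0355) and Tm7sf2 (-1.95, SE 0.44, edgeR adjusted p = 0.0441). Between HSCs and Kupffer cells 1 member passed, Mlxipl (-4.48, SE 0.77, edgeR adjusted p = 0.0309), beside 0.581% of all genes. Between ECs and HSCs no member was called by edgeR (0.0349% of all genes in either direction), 2 were higher (2.07%) and 3 lower (2.78%) at an unadjusted p under 0.05, and DESeq2 called Fasn lower (0.349%). Between ECs and hepatocytes edgeR called none (0.0697% of all genes), 15 were lower at an unadjusted p under 0.05 (6.28%), and DESeq2 called 9 lower (3.04%). The hepatocyte markers moved with these effects, since 9 of 12 were called in the interaction of ECs and Kupffer cells and 2 of 12 in that of HSCs and Kupffer cells, and their part was not tested. The calls hung on single libraries, and leaving 1 out left 1 library in a group. Without WT 38 or KO 46 of ECs, or WT 31 or KO 43 of Kupffer cells, all calls of members between ECs and Kupffer cells were lost. Those between HSCs and Kupffer cells were lost without WT 31 or KO 43 of Kupffer cells, or KO 8 or WT 40 of HSCs. In these same fits fewer of all genes were called too, so the loss was not particular to the members. With 1 library left out, the log2 difference of Mlxipl ranged from -4.33 to -2.76 between ECs and Kupffer cells. Between HSCs and Kupffer cells it ranged from -5.185 to -3.881. The call of Tm7sf2 was lost without any 1 of the 8 libraries behind it, that of Fasn without 7 of the 8, that of Idi1 without 6 and those of Mlxipl without 5.

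Other genes of the pathway were compared as 2 lists. Of 21 other genes of cholesterol and fatty acid synthesis and lipid assembly, 20 were tested in ECs. With the KO label 2 were called lower and none higher, beside 1.97% and 0.116% of all genes. The 2 were Elovl2, an elongase of polyunsaturated fatty acids (-4.21, SE 0.36, edgeR adjusted p = 0.019), and Dgat2, which makes triglycerides (-2.70, SE 0.46, edgeR adjusted p = 0.0453). All 12 hepatocyte markers were also called lower in these EC libraries. Against ECs, hepatocytes had 16 genes of this list called higher and 3 lower, beside 4387 and 5716 of all 17214 genes tested. The part of hepatocyte RNA in these values was not tested. The median log2 fold change of this list was -0.51 for ECs, -0.35 for HSCs, 0.24 for Kupffer cells and 0.33 for hepatocytes, with the same signs as the medians of the members. Of 13 genes of SREBP processing and sterol sensing, none was called by edgeR in any cell type, and in ECs 1 was higher (4.86% of all genes) and 2 lower (10.1%) at an unadjusted p under 0.05. Their medians were -0.34, -0.16, 0.31 and -0.06.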

How the data were processed

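RNA of 4 liver cell types was measured in 16 libraries. The authors deposited raw counts, the number of reads per Ensembl gene in each library, without normalization. The submitters' processing notes name Trimmomatic 0.32, HISAT2 2.1.0, HTSeq 0.9.1, edgeR and the build GRCm38, while the annotation release and the strand setting are not given in the sources used here. The series text and the sample labels name different library kits (Smart-seq2 and TruSeq stranded mRNA). The 5 summary lines of the counter were left out. They held 42.5% to 57.5% of the reads of a library, and reads with several matches alone 24.8% to 47.9%, highest in hepatocytes. Gene positions and exon lengths came from GENCODE release 21, which held 98.94% of the identifiers.

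Groups and label numbers were taken from the sample titles. The 2 libraries of each group differed beyond sampling noise and were kept as replicates. Labels were compared within the 4 libraries of a cell type, and cell types and interactions over all 16 libraries, with edgeR 4.0.16 in R 4.3.3 (filterByExpr, TMM, quasi-likelihood test, Benjamini-Hochberg adjusted p under 0.05 over all genes tested). With 2 libraries against 2, an exact permutation test cannot give a p under 0.333, so none was made. The fits were also run on simulated counts, in which all genes had the same spread and only added changes differed between groups. Such a run checks the code and cannot show how the tests behave with the spread of these libraries. CPM was computed over gene rows and RPKM as CPM per kilobase of exon. The alternatives tried were leaving the low-count filter out, requiring at least 10 counts per library, RLE size factors, TMM without hepatocyte-enriched genes, DESeq2 1.42.0, WT libraries alone, a fit of all 16 libraries, each library left out in turn, and scaling to library totals.

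The members and lists were chosen with earlier results of these data known. Named by rule were, for the labels, members past the threshold and the 3 highest and 3 lowest estimates in each cell type, for levels the 5 highest RPKM and the 3 largest called differences in each direction between cell types, for interactions the members past the threshold, and for other lists the genes past the threshold. Other members were chosen after their values were seen. Python 3.11.15 and matplotlib 3.10.9 were used for levels and plots.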

Additional observations from a re-analysis of the deposited data

Results flagged for a closer look

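5 results stood out because the effect of the genotype label differed between cell types by a test of the difference itself, edgeR's interaction over the 16 libraries. The log2 difference between the label effect in ECs and that in Kupffer cells was -3.67 for Idi1 (adjusted p = 0.0243), -1.95 for Tm7sf2 (adjusted p = 0.0441), -3.84 for Fasn (adjusted p = 0.0355) and -3.73 for Mlxipl (adjusted p = 0.0288). Between HSCs and Kupffer cells it was -4.48 for Mlxipl (adjusted p = 0.0309). For Idi1 the label estimates behind it were -2.27 in ECs and 1.39 in Kupffer cells, and for Fasn -3.69 and 0.13, none of them past the threshold within its cell type. Mlxipl was past it in ECs (-3.30), with 0.41 in Kupffer cells. On library totals the adjusted p was 0.0514 for Idi1, 0.057 for Tm7sf2 and 0.0524 for Fasn in the first comparison and 0.056 for Mlxipl in the comparison of HSCs with Kupffer cells. When each of the 8 libraries behind a difference was left out in turn, the log2 difference of all 5 kept its sign, while the call was lost 8 times for Tm7sf2 (adjusted p 0.067 to 0.236), 7 times for Fasn (0.0124 to 0.175), 6 times for Idi1 (0.029 to 0.166) and 5 times for Mlxipl in both comparisons (0.014 to 0.138 and 0.0193 to 0.099). No cause of these differences was tested.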

How the results depend on the processing

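No paired analysis was possible because the label numbers are not shared between the groups compared. The count of members called between labels depended on the settings. Counts over all genes tested are given in parentheses. In ECs it was 1 (305 of 14631), against 7 with DESeq2 (983 of 14631) and 11 without a filter on low counts (1259 of 23953). It was 4 with at least 10 counts in every library (489 of 12307), 4 in the fit of all 16 libraries (423 of 17214) and 0 on library totals (190 of 14631). In HSCs it was 0 (0 of 14390), against 4 with DESeq2 (406 of 14390), 4 without the filter (663 of 24592) and 1 in the fit of all 16 libraries (178 of 17214). In Kupffer cells DESeq2 called 1 (72 of 13867), and in hepatocytes DESeq2 called 1 (27 of 11548). The hepatocyte fit without the filter called 5, of which 4 were higher and 1 lower (227 of 19933). Over all genes DESeq2 called 983 in ECs and 406 in HSCs, where edgeR called 305 and 0. For interactions, DESeq2 called 1 between ECs and HSCs, 12 between ECs and Kupffer cells, 9 between ECs and hepatocytes and 9 between HSCs and Kupffer cells (94, 1062, 593 and 776 of 17214). EdgeR called 0, 4, 0 and 1 (6, 357, 12 and 102 of 17214). Without the filter edgeR's counts were 2, 14, 10 and 8 (305, 1302, 980 and 1123 of 29481). On library totals, a setting chosen after seeing the data, the counts for ECs against Kupffer cells and HSCs against Kupffer cells were 1 and 0 (225 and 48 of 17214). Among WT libraries alone, the sorted cell types differed in 3 members for ECs against HSCs, 2 for ECs against Kupffer cells and 5 for HSCs against Kupffer cells (1630, 2762 and 3391 of 15979). With both labels these were 10, 13 and 18 (4481, 5513 and 7389 of 17214). Fasn reversed between ECs and Kupffer cells to 0.0768 among WT libraries. The causes were not tested. With the mean of the marker shares in place of their median, 26, 29 and 26 members lay above it in all 4 libraries of ECs, HSCs and Kupffer cells. Here too no count was made over all genes.

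Leaving out each library in turn left 1 library in a group. Which members were called then depended on the library in ECs, between the sorted cell types and in interactions with Kupffer cells or hepatocytes. It changed little for hepatocytes against the other cell types. The calls over all genes moved as well, so such counts are not a result about the members. The log2 difference of Scd1 ranged from 5.28 to 6.28 between hepatocytes and ECs and from 5.89 to 7.45 between hepatocytes and HSCs. Between ECs and Kupffer cells it ranged from -3.07 to -1.99. That of Stard4 between ECs and HSCs ranged from 2.91 to 3.41. 9 of the named estimates between labels changed sign with a library left out. They ranged from -0.50 to 1.32 for Thrsp, -0.38 to 0.76 for Nsdhl and -0.0788 to 0.717 for Mvk in ECs, from -0.85 to 0.62 for Acaca and -0.0005314 to 0.1425 for Mvd in HSCs, from -0.0742 to 0.248 for Ebp and -0.338 to 0.025 for Nsdhl in Kupffer cells, and from -1.86 to 0.46 for Acly and -0.97 to 0.33 for Srebf2 in hepatocytes. The levels nearest to the smallest that this depth can show were those of Me1 in KO-labelled ECs 46 (0.348 CPM), Acacb in WT Kupffer cells 31 (0.402 CPM) and Idi1 in KO-labelled ECs 46 (0.487 CPM).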

Other observations

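Over the 16 libraries, the genes outside the list whose log2 CPM was most alike to the mean profile of the 16 cholesterol enzymes were Ugt1a10 (Pearson's r = 0.984), Igsf11 (0.983), Cyp3a16 (0.980), Gcat (0.980) and Slc25a1 (0.979), of 17296 genes compared. Slc25a1, the mitochondrial citrate carrier, supplies the citrate that Acly cleaves, and Ugt1a10 and Cyp3a16 belong to families of drug-metabolizing enzymes. The enzymes closest to the profile were Sc5d (0.995), Msmo1 (0.975) and Sqle (0.972). Each of these is itself part of that mean, which raises its correlation, so these values do not compare with those of the genes outside the list. The libraries share their cell types, 4 of which are hepatocytes, and the correlations describe that pattern.

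Of the 47729 genes counted, 857 had at least 10 CPM in WT hepatocytes and at least 8 times their WT Kupffer cell level. Of the 32 members 11 did, namely Mlxipl, Sqle, Fads2, Sc5d, Me1, Lss, Thrsp, Scd1, Elovl6, Acacb and Idi1. The other 21 members did not meet these limits. These are the genes called hepatocyte-enriched among the alternatives above, but ECs and HSCs were not part of the rule. Acacb had a mean of 11.4 CPM in WT hepatocytes, 8.23 in WT ECs, 6.30 in WT HSCs and 1.08 in WT Kupffer cells.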
